A study of Mus musculus with 8 samples.

Results

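Genes of the extracellular adenosine and NAD ectoenzyme axis were followed in CD8+ T cells given diisopropylamine dichloroacetate (DADA), an inhibitor of pyruvate dehydrogenase kinase. The 9 genes were fixed by name (*Entpd1*, *Nt5e*, *Cd38*, *Adora2a*, *Adora2b*, *Ada*, *Adk*, *Dpp4* and *Slc29a1*), and all 9 were found among the 22520 genes and assembled transcripts of the table. CD8+ T cells from the spleens of wild-type mice were stimulated with antibodies to CD3 and CD28 in the presence of IL-2 for 6 days, a culture model of exhaustion without tumor cells or other stroma. Both groups received these stimuli. From day 3, 4 cultures received 40 µM DADA and 4 received DMSO, the solvent, and bulk RNA was sequenced on day 6. The genotype entry of the labels reads control for the DMSO libraries and model for the DADA libraries, and the methods list mice of several strains, all bought at 6 to 8 weeks of age, without naming the strain for these cells. The submitters call the 4 libraries of each group biological replicates, without saying whether they came from separate mice, so p-values measure the spread between these libraries.

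ATP released by stressed, dying or activated cells is an alarm signal, and ectoenzymes on the cell surface turn it into adenosine, which restrains T cells. CD39, encoded by *Entpd1*, removes phosphates from ATP and ADP to give AMP, and CD73, encoded by *Nt5e*, takes the last phosphate from AMP. NAD outside the cell is hydrolyzed by CD38, whose products can also be fed into AMP and adenosine. Adenosine acts through receptors that raise cyclic AMP in T cells, among them those encoded by *Adora2a* and *Adora2b*, and it is removed by uptake, deamination or phosphorylation. CD39 and CD38 are widely used as surface markers of exhausted CD8+ T cells in tumors, and CD73 of naive and memory-like ones.

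Values are given as FPKM, fragments per length of transcript and per fragments mapped in the library, which allow levels of different genes to be compared. Changes are log2 fold changes on the log2(FPKM + 1) scale, DADA minus DMSO, which understates the change of genes with low FPKM. They were tested with limma over 10666 genes, those with 1 FPKM or more in 4 or more libraries, and a gene was called at a Benjamini-Hochberg adjusted p-value under 0.05. Single genes and ratios were compared by an exact permutation test (two-sided, 70 ways to divide the libraries), which cannot give a p below 0.0286. The table carries no read counts, and its lowest values did not settle the depth, so no counting error is given. FPKM sums of the libraries were 450473 to 456939 with DMSO and 438299 to 449480 with DADA, lower in every DADA library. Correlations between libraries across genes were 0.993 to 0.995 within groups and 0.958 to 0.961 between them.

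The libraries carried the markers of CD8+ T cells. The summed level of *Cd8a*, *Cd8b1*, *Cd3d*, *Cd3e* and *Cd3g* was 674 to 680 FPKM with DMSO and 776 to 805 FPKM with DADA, and all 5 were called higher, against 30.9% of all genes tested. The weakest of them, *Cd3g*, overlapped between the groups (exact permutation test, p = 0.0857), and 4 rather than 5 were called in 8 of 17 alternatives. Since B cells, regulatory T cells and myeloid cells also carry CD39 or CD73, their markers were examined. *Pax5* of B cells and *Csf1r* and *Adgre1* of myeloid cells were listed at 0 in every library. *Cd79b*, a B cell receptor subunit, was at 2.42 to 3.47 FPKM with DMSO and 2.18 to 2.90 FPKM with DADA. *Cd79a*, its partner, was at 0.0622 and 0.148 FPKM on average, with overlap between the groups. The 6 myeloid markers summed to 3.67 to 4.37 and 5.18 to 5.75 FPKM, nearly all of it *Cd68*, which was called higher (log2 fold change 0.44, limma, adjusted p = 2.71e-05). At very low levels, *Itgam* was higher in every DADA library (0.00433 and 0.0282 FPKM on average), while *Fcgr3* overlapped between the groups (0.244 and 0.189 FPKM). *Foxp3*, the factor of regulatory T cells, was at 0.0426 to 0.103 FPKM with DMSO and 0.187 to 0.268 FPKM with DADA. The 5 markers of CD4+ and regulatory T cells summed to 18.9 to 20.02 and 18.8 to 19.3 FPKM, mostly *Zbtb7b*, which was called lower (log2 fold change -0.11). *Cd4* was at 0.283 FPKM on average with DMSO and 0.213 FPKM with DADA. *Cd40lg* was at 0.222 and 0.0767 FPKM on average, lower in every DADA library. *Ikzf2*, which regulatory T cells and some CD8+ T cells express, was called higher, at 2.43 to 2.68 and 3.23 to 3.65 FPKM (log2 fold change 0.33, limma, adjusted p = 2.47e-04). The 4 NK markers, led by *Eomes*, which CD8+ T cells share, summed to 15.2 to 16.3 and 12.1 to 13.2 FPKM. *Eomes* was called lower (log2 fold change -0.36), *Klre1* was not called (1.97 and 2.05 FPKM on average), and *Klrb1c* was higher in every DADA library at a low level, at no more than 0.0484 FPKM with DMSO and 0.144 to 0.249 FPKM with DADA. The 5 erythroid markers stayed below 0.426 FPKM in sum in every library. The part of such cells in the values below was not tested.

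All 9 genes passed the filter, and 7 were called: 1, *Nt5e*, was higher with DADA and 6 were lower, namely *Entpd1*, *Ada*, *Adk*, *Slc29a1*, *Dpp4* and *Adora2b*. *Cd38* and *Adora2a* were not called. DADA changed a large part of the transcriptome, with 66.2% of all genes tested called, 30.9% higher and 35.3% lower, so the share of called genes among the 9 was near the background, and the count of 6 lower genes was described only. For the same 7 genes the DMSO and DADA libraries did not overlap, which held for 60.6% of all genes tested. The median log2 fold change of the 9 genes was -0.27, against -0.02 over all genes tested. By size, *Entpd1* changed more than 93.8% of the genes tested, *Ada* more than 91.5% and *Adk* more than 85.1%, whereas *Adora2a* and *Cd38* changed more than 19.3% and 13.95%. Because these were bulk libraries, fewer cells that express a gene and less RNA per cell cannot be told apart.

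**Figure D1:**
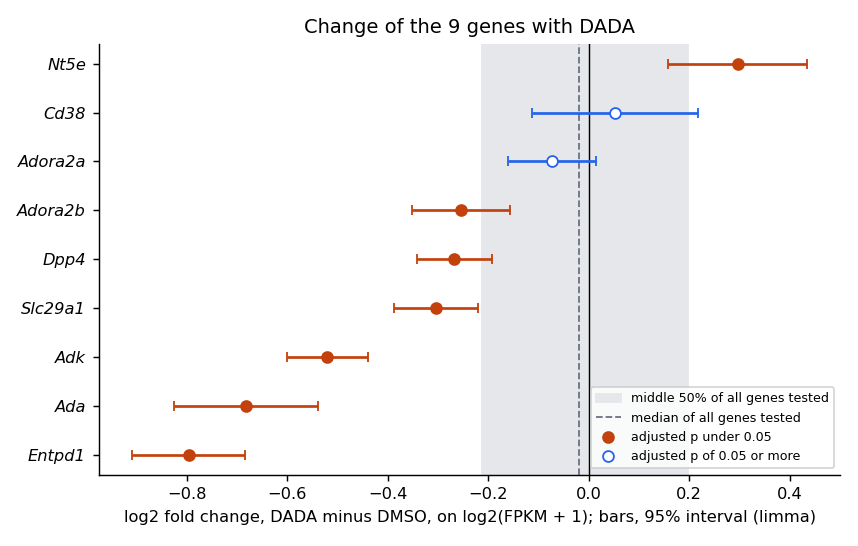
Log2 fold change of each of the 9 genes, DADA minus DMSO on log2(FPKM + 1), with the 95% interval from limma (4 libraries per group). Filled points have an adjusted p-value under 0.05, the grey band holds the middle 50% of all genes tested and the dashed line is their median. *Nt5e* lies at 0.30, *Entpd1*, *Ada* and *Adk* lie at -0.80, -0.68 and -0.52, and the intervals of *Cd38* and *Adora2a* cross 0.

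Transcripts of the 2 enzymes that act in sequence from ATP to adenosine moved in opposite directions. These libraries give RNA levels, and protein and enzyme activity cannot be read from them. *Entpd1* (ENSMUSG00000048120) was at 3.66, 3.64, 3.54 and 3.47 FPKM in DMSO libraries 1 to 4, and at 1.78, 1.57, 1.56 and 1.63 FPKM in DADA libraries 1 to 4. All values with DADA lay under all values with DMSO, and the mean fell by 54.3%. The log2 fold change was -0.80 (95% interval -0.91 to -0.68, limma, adjusted p = 3.58e-07). With the smaller pseudocount of 0.1 it was -1.08. *Nt5e* (ENSMUSG00000032420) was at 4.57, 4.498, 5.07 and 3.97 FPKM with DMSO, the most variable of the called genes in that group (coefficient of variation 9.89%), and at 5.68, 5.52, 5.93 and 5.96 FPKM with DADA. The groups did not overlap, although DMSO 3, at 5.07, came near DADA 2, at 5.52. Its mean rose by 27.5%, with a log2 fold change of 0.30 (95% interval 0.16 to 0.43, limma, adjusted p = 0.00176).

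The ratio of *Entpd1* to *Nt5e* within a library does not depend on how libraries are scaled. It was 0.801, 0.810, 0.699 and 0.874 in the DMSO libraries and 0.313, 0.284, 0.264 and 0.274 in the DADA libraries. Transcripts of the CD39 gene were thus slightly scarcer than those of the CD73 gene with DMSO, and far scarcer with DADA, with no overlap. The log2 ratio differed by -1.49 (exact permutation test, p = 0.0286).

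**Figure D2:**
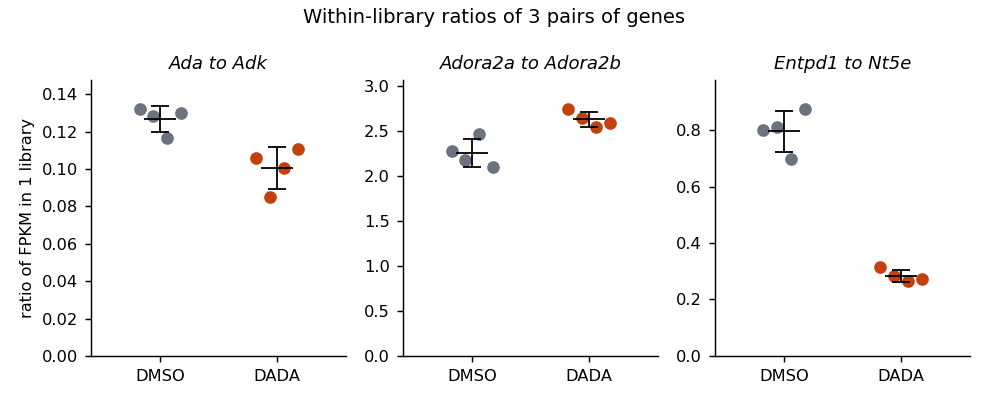
Ratio of the FPKM of 2 genes in each library (points, 4 DMSO and 4 DADA) with the mean and SD (bars). *Entpd1* to *Nt5e* fell from 0.796 to 0.284 on average, *Ada* to *Adk* from 0.127 to 0.1004, and *Adora2a* to *Adora2b* rose from 2.25 to 2.63, each with no overlap between the groups.

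The sequences just before the annotated starts of the gene that rose and of those that fell most are shown because these genes moved in opposite directions. They are RefSeq sequences of the 250 bases before each start, on the strand of the gene, in GRCm38.p6, a build other than the GRCm39 named in the submitters' notes. RefSeq's table held a start for 8 of the 9 genes. Capitals mark the core of the hypoxia response element (ACGTG or GCGTG, searched on both strands, so also CACGT or CACGC) and the short site TGACG of the cyclic AMP response element (CGTCA on the other strand, and part of the full element TGACGTCA). *Entpd1* has 2 starts in the table, at chr19:40612116-40612365 (+) and chr19:40659520-40659769 (+), *Nt5e* has 1 at chr9:88327359-88327608 (+), and *Ada* has 1 at chr2:163750240-163750489 (-).
Entpd1 first start: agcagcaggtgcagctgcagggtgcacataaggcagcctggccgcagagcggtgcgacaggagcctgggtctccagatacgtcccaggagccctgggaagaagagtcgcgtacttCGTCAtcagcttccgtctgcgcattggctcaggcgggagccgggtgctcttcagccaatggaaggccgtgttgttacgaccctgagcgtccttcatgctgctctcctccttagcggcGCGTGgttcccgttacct
Entpd1 second start: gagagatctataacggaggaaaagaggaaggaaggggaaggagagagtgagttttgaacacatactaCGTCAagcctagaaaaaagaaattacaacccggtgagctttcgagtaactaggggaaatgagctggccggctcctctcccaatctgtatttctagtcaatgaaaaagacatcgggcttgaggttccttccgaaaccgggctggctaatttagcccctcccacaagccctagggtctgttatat
Nt5e: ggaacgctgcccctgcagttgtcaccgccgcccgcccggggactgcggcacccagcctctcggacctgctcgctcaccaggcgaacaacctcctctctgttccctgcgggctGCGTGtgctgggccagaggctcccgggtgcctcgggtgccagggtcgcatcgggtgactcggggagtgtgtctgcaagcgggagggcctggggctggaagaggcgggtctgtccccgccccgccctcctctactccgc
Ada: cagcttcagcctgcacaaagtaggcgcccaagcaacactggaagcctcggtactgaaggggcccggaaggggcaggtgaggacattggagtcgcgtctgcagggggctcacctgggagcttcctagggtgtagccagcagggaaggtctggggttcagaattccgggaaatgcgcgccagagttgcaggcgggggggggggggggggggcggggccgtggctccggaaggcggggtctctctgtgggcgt

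A hypoxia core stood in the *Nt5e* window from base -138 to -134 and in the window of the first *Entpd1* start from -18 to -14, counted from the annotated start. Both *Entpd1* windows held the cyclic AMP short site, at -135 to -131 and at -183 to -179. The *Ada* window held neither. Such short words are frequent: the hypoxia core occurred in 38.6% and the short site in 17.8% of all 32851 windows of the same length. The full element (TGACGTCA), the AP-1 site (TGANTCA) and the NF-kB site (GGANTTTCC) occurred in none of the 17 windows of these 8 genes, against 1.55%, 6.75% and 1.07% of all windows. The core of the interferon-stimulated response element (GAAANNGAA) occurred in 1, that of *Dpp4*, against 7.13% of all windows. The *Nt5e* window was rich in G and C (72.0%, against a median of 52.4% over all windows), that of *Ada* was at 67.2%, and those of *Entpd1* were at 62.4% and 47.2%. These matches are letters in a window, and which start the cells used cannot be read from 1 value per gene.

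**Figure D3:**
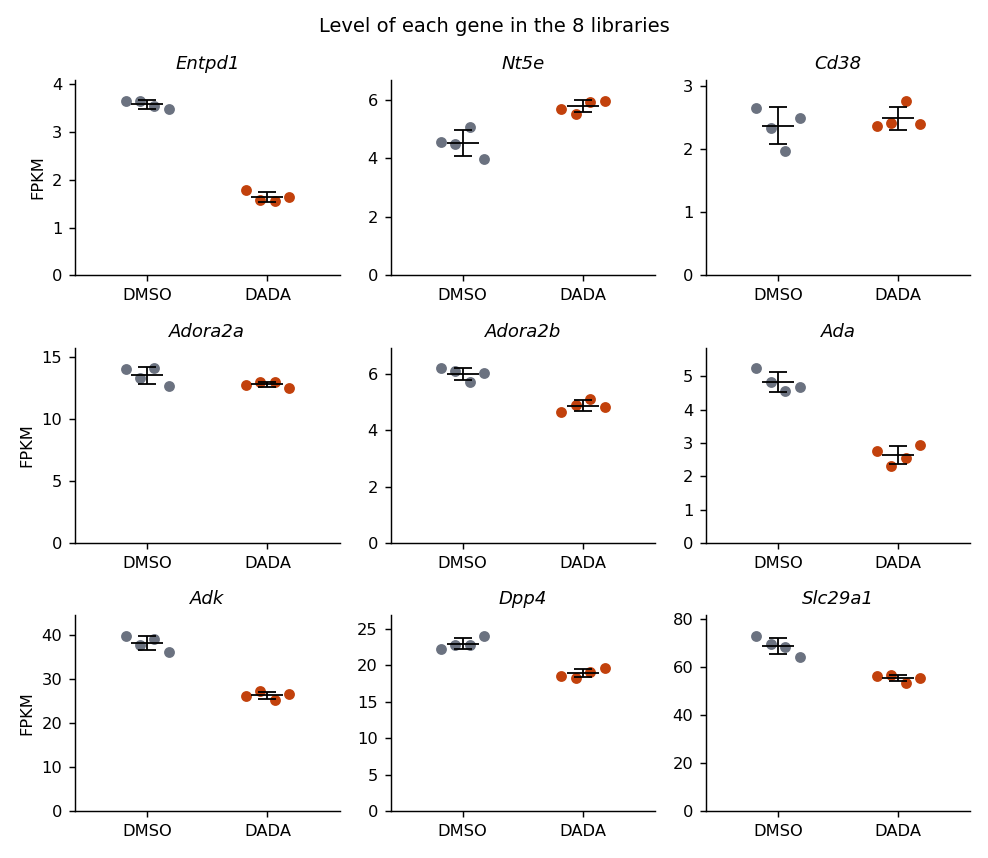
FPKM of each of the 9 genes in every library (points), with the mean and SD of the 4 DMSO and the 4 DADA libraries (bars) and each axis starting at 0. The groups are apart for all genes but *Cd38* and *Adora2a*, and *Nt5e* is the one gene of the 7 that is higher with DADA.

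Of the adenosine receptors, *Adora2b* was lower with DADA and *Adora2a* was not called. *Adora2a* (ENSMUSG00000020178), the main adenosine receptor of T cells, was at 14.1, 13.3, 14.1 and 12.7 FPKM with DMSO and at 12.7, 12.97, 12.98 and 12.5 FPKM with DADA. The groups overlapped through DMSO 4, the log2 fold change was -0.07 (95% interval -0.16 to 0.02, limma, adjusted p = 0.128), and without DMSO 4 it was -0.10 (limma, adjusted p = 0.0340). *Adora2b* (ENSMUSG00000018500), whose product needs higher adenosine levels to respond, was at 6.19, 6.10, 5.71 and 6.04 FPKM with DMSO and at 4.65, 4.91, 5.10 and 4.84 FPKM with DADA. All DADA libraries were lower, and the log2 fold change was -0.25 (95% interval -0.35 to -0.16, limma, adjusted p = 5.10e-04). The difference between the receptors was tested on their ratio, which was 2.27, 2.18, 2.47 and 2.10 with DMSO and 2.74, 2.64, 2.54 and 2.59 with DADA. *Adora2a* was the more abundant of the pair in all 8 libraries, and its excess was larger with DADA (log2 difference 0.22, exact permutation test, p = 0.0286). *Adora1* was listed at 0 in every library, and *Adora3* stayed below 1 FPKM, with means of 0.0553 and 0.263 FPKM.

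Of the genes tied to the removal of adenosine, *Ada*, *Adk*, *Slc29a1* and *Dpp4* were each called lower with DADA, as were 35.3% of all genes tested. The tie of *Dpp4* rests on human cells. The adenosine deaminase-like gene *Adal* was not called (4.46 and 4.91 FPKM on average, log2 fold change 0.12). *Ada* (ENSMUSG00000017697), adenosine deaminase, which turns adenosine into inosine, was at 5.23, 4.84, 4.56 and 4.69 FPKM with DMSO and at 2.75, 2.32, 2.54 and 2.93 FPKM with DADA. No DADA library reached the lowest DMSO library, and the mean fell by 45.4% (log2 fold change -0.68, 95% interval -0.83 to -0.54, limma, adjusted p = 6.75e-06). *Adk* (ENSMUSG00000039197), adenosine kinase, which returns adenosine to AMP inside the cell, was far more abundant than *Ada* in every library. It was at 39.7, 37.8, 39.1 and 36.1 FPKM with DMSO and at 26.1, 27.3, 25.3 and 26.5 FPKM with DADA. Its mean fell by 31.1%, again with a wide gap between the groups (log2 fold change -0.52, 95% interval -0.60 to -0.44, limma, adjusted p = 7.37e-07).

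The transcript of the deaminase fell more than that of the kinase. The ratio of *Ada* to *Adk* was 0.132, 0.128, 0.117 and 0.130 with DMSO and 0.106, 0.0851, 0.1003 and 0.111 with DADA, a log2 difference of -0.34 (exact permutation test, p = 0.0286). The gap between the groups was narrow, from 0.111 in DADA 4 to 0.117 in DMSO 3. With 1 FPKM added to both genes, the log2 difference was -0.16 and the groups overlapped (exact permutation test, p = 0.0571).

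*Slc29a1* (ENSMUSG00000023942), the equilibrative transporter ENT1 that carries adenosine across the membrane, was the most abundant of the 9 genes. It was at 72.8, 69.8, 68.2 and 64.3 FPKM with DMSO and at 56.3, 56.6, 53.4 and 55.4 FPKM with DADA, lower in every DADA library (log2 fold change -0.31, limma, adjusted p = 4.79e-05). *Dpp4* (ENSMUSG00000035000) encodes CD26, a surface peptidase that anchors adenosine deaminase on human T cells. It was at 22.3, 22.8, 22.9 and 24.0 FPKM with DMSO and at 18.6, 18.3, 19.2 and 19.6 FPKM with DADA, lower in every DADA library (log2 fold change -0.27, limma, adjusted p = 5.38e-05). The means of *Slc29a1* and *Dpp4* fell by 19.4% and 17.7%. An exon of each overlaps a gene on the other strand (*Gm17080* by 275 bases and *Gm13561* by 232 bases, GENCODE M21), and neither of those genes has a row in the table.

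*Cd38* (ENSMUSG00000029084), which hydrolyzes NAD and makes cyclic ADP-ribose, was the least abundant of the 9 genes with DMSO, and no difference was called. It was at 2.66, 2.34, 1.98 and 2.50 FPKM with DMSO and at 2.37, 2.41, 2.77 and 2.41 FPKM with DADA, with DADA 3 the highest and DMSO 3 the lowest. The groups overlapped in part (log2 fold change 0.05, 95% interval -0.11 to 0.22, limma, adjusted p = 0.549, and exact permutation test, p = 0.514). The sign changed to -0.01 without DMSO 3 and to -0.07 with quantile normalization. *Bst1*, the neighboring paralog of *Cd38* that encodes CD157, was at 0.385, 0.540, 0.541 and 0.413 FPKM with DMSO and at 2.97, 2.26, 2.88 and 2.75 FPKM with DADA. It thus reached the level of *Cd38* with DADA alone (log2 fold change 1.33, limma, adjusted p = 2.05e-07), and it passed the filter through the DADA libraries alone. Whether the changes of *Bst1* and *Cd38* differ was not tested. *Art2b*, an ADP-ribosyltransferase that uses extracellular NAD, was at 1.24 and 1.06 FPKM on average and was not called (limma, adjusted p = 0.221), and its near-identical copy *Art2a* makes the value uncertain.

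With DMSO, the order of the mean levels was *Slc29a1* (68.8 FPKM), *Adk* (38.1), *Dpp4* (23.0), *Adora2a* (13.5), *Adora2b* (6.01), *Ada* (4.83), *Nt5e* (4.53), *Entpd1* (3.58) and *Cd38* (2.37). Among neighbors in this order, only *Ada* and *Nt5e* overlapped in their libraries. With DADA, the first 4 places were unchanged, at 55.4, 26.3, 18.9 and 12.8 FPKM. They were followed by *Nt5e* (5.77), *Adora2b* (4.88), *Ada* (2.64), *Cd38* (2.49) and *Entpd1* (1.64), and only *Ada* and *Cd38* overlapped. *Nt5e* thus moved from below to above both *Adora2b* and *Ada*, and *Entpd1* from above to below *Cd38*.

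The wider pathway was covered by 97 further genes of purine, NAD and cyclic AMP handling, and 61 of them were tested. Of these, 39 (63.9%) were called, 19 higher and 20 lower, with a median log2 fold change of -0.02, close to the background in both respects. The counts by list below include the 9 genes where they belong to a list. Of the 9 ectonucleotidases, 4 were tested and all were called, 2 higher and 2 lower, where 66.2% of all genes tested were called. Beside *Entpd1* and *Nt5e*, these were *Alpl*, an alkaline phosphatase that can also dephosphorylate AMP, and *Enpp1*, which splits ATP and NAD outside the cell. *Alpl* fell from 2.91 ± 0.252 to 0.947 ± 0.154 FPKM (SD, n = 4, log2 fold change -1.01, limma, adjusted p = 1.17e-06). Of the DADA libraries, only DADA 4 reached 1 FPKM for *Alpl*. *Enpp1* was at 1.34, 2.25, 1.95 and 2.59 FPKM with DMSO and at 3.33, 5.28, 2.58 and 3.38 FPKM with DADA, so that its groups just overlapped (log2 fold change 0.60, limma, adjusted p = 0.0118; exact permutation test, p = 0.0571).

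Of 4 intracellular relatives of *Entpd1*, all tested, 2 were called higher and none lower, where 30.9% and 35.3% of all genes tested were. These were *Entpd7* (log2 fold change 0.34) and *Entpd4* (0.46), which overlapped between the groups. Of 6 NAD ectoenzymes, 4 were tested, with *Bst1* and *Enpp1* called higher and none lower. Of 7 nucleoside transporters, *Slc29a1* among them, 4 were tested and all were called, 3 lower and 1 higher, where 66.2% of all genes tested were called. The one that rose was *Slc29a3*, an intracellular family member, from 7.27 ± 0.197 to 9.22 ± 0.0587 FPKM (SD, n = 4; log2 fold change 0.31), while *Slc29a2*, the other equilibrative carrier of the surface, fell from 3.33 ± 0.331 to 2.43 ± 0.192 FPKM (log2 fold change -0.34). Of 8 purine salvage and AMP enzymes tested, 5 were called lower and 1 higher, where 35.3% and 30.9% of all genes tested were. The one that rose was *Ak4*, a mitochondrial adenylate kinase, from 3.74 ± 0.186 to 19.6 ± 0.611 FPKM (log2 fold change 2.12, limma, adjusted p = 7.88e-11). *Ampd2*, which deaminates AMP, fell from 32.5 ± 1.32 to 21.5 ± 0.933 FPKM (log2 fold change -0.57). Of 5 tested nucleotidases of the cytosol and mitochondria, 1 was called lower and none higher, where 66.2% of all genes tested were called.

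Of 15 receptors for ATP and other nucleotides, 4 were tested, with 3 called higher and 1 lower, where 30.9% and 35.3% of all genes tested were. *P2ry14*, the receptor for UDP-sugars, was at 5.10, 3.42, 4.82 and 4.11 FPKM with DMSO and at 12.3, 12.4, 12.4 and 13.2 FPKM with DADA, far apart (log2 fold change 1.35, limma, adjusted p = 5.57e-07). *P2rx3*, an ATP-gated channel, was at 1.04 ± 0.197 and 2.02 ± 0.287 FPKM (SD, n = 4; log2 fold change 0.56). *P2rx4*, another such channel, overlapped between the groups, at 5.55 and 6.75 FPKM on average (log2 fold change 0.25, limma, adjusted p = 0.0164; exact permutation test, p = 0.0857). The lower one, *P2ry10*, a lysophospholipid receptor by function, changed by -0.08, a call lost in 9 of 17 alternatives, among them TPM scaling, quantile normalization and leaving out DMSO 2, DMSO 4 or any single DADA library. Among ATP release channels, 1 of 4 tested was called, against 66.2% of all genes tested. It was *Gja1*, a connexin, which was below 1 FPKM in every DADA library (log2 fold change -0.55). It passed the filter through the DMSO libraries alone.

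Inside the cell, 11 of 15 enzymes of NAD synthesis and use were tested. Of these, 2 were called higher and 4 lower, where 30.9% and 35.3% of all genes tested were. *Nampt*, the rate-limiting enzyme of NAD salvage, rose from 30.2 ± 1.01 to 58.0 ± 1.27 FPKM (SD, n = 4; log2 fold change 0.92, limma, adjusted p = 2.72e-09), and *Nmrk1*, the nicotinamide riboside kinase, from 11.7 ± 0.618 to 21.2 ± 1.95 FPKM (log2 fold change 0.80, limma, adjusted p = 1.49e-06). *Parp1*, which consumes NAD in DNA repair, fell from 59.5 ± 1.4 to 40.5 ± 0.781 FPKM (log2 fold change -0.54). For each of these 3 genes, the DMSO and DADA libraries did not overlap, which held for 60.6% of all genes tested.

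**Figure D4:**
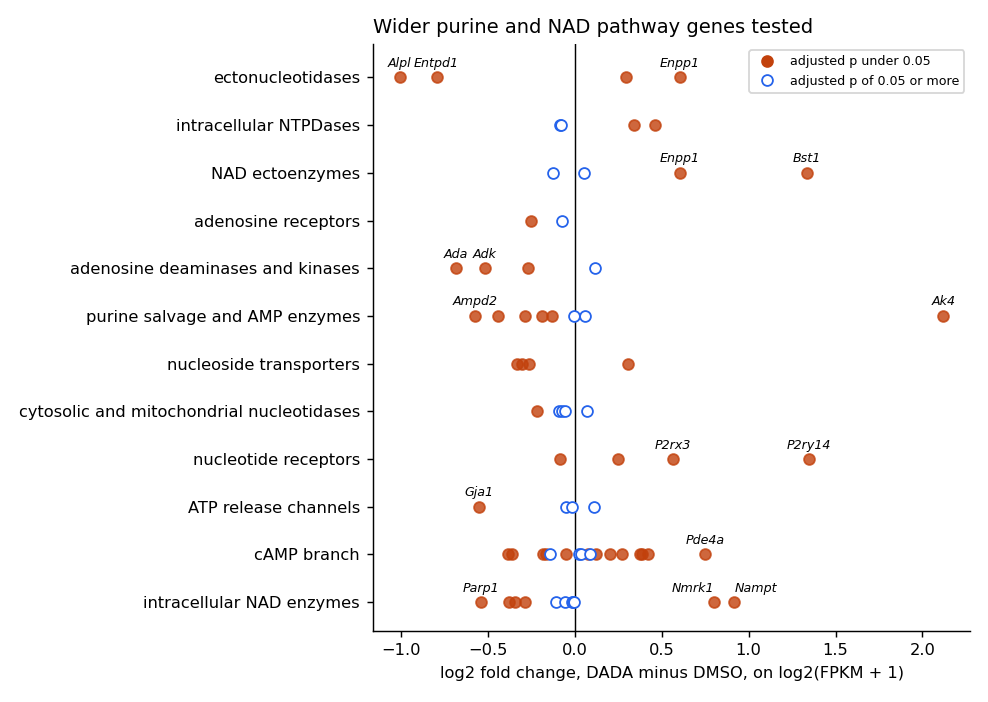
Log2 fold change, DADA minus DMSO on log2(FPKM + 1), of the genes tested in 12 lists of purine, NAD and cyclic AMP genes, 1 point per gene, filled where the adjusted p-value is under 0.05. Called genes with a size of at least 0.5 are named, from *Alpl* at -1.01 to *Ak4* at 2.12, and *Enpp1* stands in 2 lists.

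A further 36 genes of the wider pathway did not pass the filter, 9 of them at 0 in every library. Fitted without the filter, where 48.7% of 16167 genes were called, 10 of the 36 had an adjusted p-value under 0.05, 6 higher and 4 lower. The 2 with the largest changes on the log2(FPKM + 1) scale, *P2ry12* and *P2rx7*, were named after their values were seen. *P2ry12*, a receptor for ADP, was at 0.295, 0.204, 0.306 and 0.2499 FPKM with DMSO and at 0.511, 0.969, 0.783 and 0.804 FPKM with DADA, higher in every DADA library (log2 fold change 0.48, limma, adjusted p = 8.80e-04). *P2rx7*, an ATP-gated channel that is also a target of ADP-ribosylation on T cells, was at 0.408, 0.435, 0.576 and 0.673 FPKM with DMSO and at 0.126, 0.0684, 0.105 and 0.137 FPKM with DADA, lower in every DADA library (log2 fold change -0.45, limma, adjusted p = 1.97e-04). Among the others, *P2ry2* and *Adora3* were higher (log2 fold change 0.24 and 0.26). By the ratio of mean FPKM, DADA to DMSO, *Prkar1b* (5.70), *Adora3* (4.76) and *P2ry2* (3.31) rose more than *P2ry12* (2.91).

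Genes whose pattern over the 8 libraries was most like that of the 2 genes with the largest changes were sought among the 8190 genes whose mean was 5 FPKM or more. For *Entpd1*, these were *Npepl1*, *Ppp1r8* and *Cfdp1* (Pearson r = 0.999, 0.998 and 0.998), and for *Ada* they were *Psmb1*, *Rbbp8* and *Vwa5a* (r = 0.996, 0.994 and 0.993). The difference between the groups sets most of such a correlation, and 1455 and 1067 genes had an r over 0.95 with *Entpd1* and *Ada*.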

How the data were processed

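CD8+ T cells from mouse spleen, 4 libraries with DMSO and 4 with DADA, were grouped by their titles and the treatment protocol. The deposited table holds the authors' FPKM, with 1 value for each gene in each library, from paired reads of 150 bases. The submitters' processing notes name HISAT2 2.0.5 and StringTie 1.3.3 and the builds GRCm39 and GRCh38, without saying how they were used. The labels and the methods name different library kits, so whether strand was used in counting is not known here. One gene of the lists, *Hprt1*, was matched by its identifier. One cell type marker is not reported here.

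Values were analysed as log2(FPKM + 1) with limma 3.58.1 in R 4.3.3 (lmFit with a single DADA term, eBayes with trend, Benjamini-Hochberg adjustment), over all genes with at least 1 FPKM in at least 4 libraries. The fit was tested on simulated data. The genes and lists were chosen with earlier results of these data known. The text names the 9 genes, genes of the lists that were called with a size of at least 0.5, and, for the 2 largest changes, the 3 genes most alike over the libraries. Others are named as examples, chosen after their values were seen. Depth was sought from low values of 4431 genes with a single transcript in GENCODE M21, between 8000000 and 22000000 fragments, limits set after a wider search gave multiples. It gave 13620000 to 19100000 fragments per library, but only 35.2% to 44.4% of these values lay within 0.1 of a whole number (20% if spread evenly), so the estimate was not used. Promoter windows and figures used Python 3.11.15, pandas 2.3.3 and matplotlib 3.10.9.

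The alternatives were a pseudocount of 0.1, no filter, a mean of at least 5 FPKM, TPM scaling, median-ratio scaling, quantile normalization, no variance trend, no assembled transcripts, the replicate number as a block, and each library left out in turn. Ratios were also computed with 1 FPKM added to both genes.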

Additional observations from a re-analysis of the deposited data

Results flagged for a closer look

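In 1 of 24 sets of 4 libraries looked at (the 9 genes and 3 ratios in each group), a library stood far from the other 3. *Cd38* was at 2.77 FPKM in DADA 3 against 2.37 to 2.41 FPKM in the other DADA libraries, and its gap to the nearest of them was 0.900 of the range of the group. A gap was singled out when it was over Dixon's critical value for 4 values, a limit that chance passes in about 1 of 20 sets.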

How the results depend on the processing

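The 7 calls among the 9 genes kept their direction and an adjusted p-value under 0.05 (limma) in every alternative that tested them. With a mean of at least 5 FPKM, *Entpd1*, *Ada* and *Cd38* were not tested, leaving 4 lower genes. Over all genes tested, 3296 were called higher and 3768 lower, but 3602 and 3379 with TPM scaling and 4007 and 3861 with no filter. The count of all genes called was 5741 to 7868 over the alternatives and 6700 to 6848 with 1 library left out. The log2 fold change of *Cd38*, not called in any of them, was -0.072 with quantile normalization, and with 1 library left out it lay between -0.0061 (without DMSO 3) and 0.094. That of *Adora2a* lay between -0.10 and -0.054 with 1 library left out and was called without DMSO 4 alone, so that the count of lower genes was 6 to 7. Same-numbered libraries did not deviate together (correlations of deviations across genes -0.12 to 0.10, against -0.27 to 0.13 for differently numbered ones). Such correlations cannot exclude that the libraries were paired by number. The replicate block gave 6995 calls, with the same calls among the 9 genes. For the ratios, the paired test with the replicate block cannot go below p = 0.125 (exact test), which it gave for *Ada* to *Adk* (-0.34), *Adora2a* to *Adora2b* (0.22) and *Entpd1* to *Nt5e* (-1.49). With 1 FPKM added to both genes, *Ada* to *Adk* was -0.16 (exact permutation test, p = 0.0571). With 1 library left out, these log2 differences lay between -0.39 and -0.26, between 0.19 and 0.27, and between -1.55 and -1.44, and p was 0.0286 or 0.0571 (exact permutation test): 0.0571 for *Ada* to *Adk* without DMSO 1, DMSO 2, DMSO 4 or DADA 2, and for the receptors without any single DADA library, although the remaining libraries did not overlap. Of the 39 other genes called, only *P2ry10*, *Prkar1a* and *Prkaca* lost their call in any alternative that tested them, and 10 fell below the mean of 5 FPKM. How far depth limits the genes with the lowest levels, *Cd38*, *Entpd1* and *Ada*, cannot be given without counts.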

Other observations

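Genes of the cyclic AMP branch downstream of the adenosine receptors went both ways. The list mixes genes that raise cyclic AMP with genes that lower it, so its counts give no direction for cyclic AMP. Of 19 genes listed, 17 were tested, with 8 called higher and 5 lower, where 30.9% and 35.3% of all genes tested were. Their median log2 fold change was 0.07, against -0.02 over all genes tested. The counts include *Prkaca* (log2 fold change 0.07) and *Prkar1a* (-0.05), whose calls were lost in 6 and 11 of 17 alternatives. *Gnas*, the G protein subunit that couples these receptors to adenylyl cyclase, had a mean of 330.4 ± 10.9 FPKM in the DMSO libraries and 336.2 ± 6.07 FPKM in the DADA libraries (SD, n = 4) and was not called (log2 fold change 0.03, limma, adjusted p = 0.423). *Crem*, a factor of the cyclic AMP response, was higher in every DADA library, with 115 to 123 FPKM in the DMSO libraries and 147 to 161 FPKM in the others (log2 fold change 0.37, limma, adjusted p = 5.14e-06). The cyclic AMP phosphodiesterases of the PDE4 family were not alike. *Pde4a* rose from 0.905 ± 0.202 to 2.20 ± 0.132 FPKM (log2 fold change 0.75, limma, adjusted p = 1.95e-05) and *Pde4b* from 12.9 ± 1.14 to 17.6 ± 0.617 FPKM (log2 fold change 0.42), while *Pde4d* fell from 26.7 ± 0.743 to 20.6 ± 1.26 FPKM (log2 fold change -0.36). *Pde4b* and *Pde4d* were named after their values were seen.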
